A study of Homo sapiens with 12 samples.

Results

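Liver cells make bile acids from cholesterol and hold their own output in check, and the genes that do this were followed here in HepG2C3A cells, a human liver tumour line kept for its hepatocyte-like functions. The 10 listed genes were CYP7A1, CYP7B1, CYP8B1, CYP27A1, BAAT, SLC27A5, AMACR, FGF19, NR1H4 and NR0B2. They were chosen by name and read from array probe sets that carry exactly 1 gene symbol, with the brightest such probe set standing for a gene. Of the 10, 8 had such a probe set, out of 18404 genes so named on the arrays. AMACR had 1 probe set, which it shares with the readthrough gene C1QTNF3-AMACR, and NR1H4 is unnamed in the probe annotation used here, so neither has a value of its own. A probe set was tested when at least 3 of the 12 arrays lay above the 40th percentile of all probe sets of that array. CYP27A1, SLC27A5, NR0B2 and FGF19 passed, among 13199 genes that did. CYP7A1, CYP7B1, CYP8B1 and BAAT lay under that percentile on all 12 arrays, so they are described without a test, and a signal above background is not shown for them.

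The study compared 4 groups of 3 arrays each: untreated cells in Petri dishes, acetaminophen-treated cells in Petri dishes, untreated cells in a culture microsystem, and acetaminophen-treated cells in that microsystem. All were grown for 96 h, and treated cells had the drug for 72 h. The labels used here name neither the dose nor the make of the microsystem, and every group is the same single line. RNA was taken after the cells had been detached with trypsin, so each array averages a whole culture. A smaller share of cells holding a transcript and less of it per cell therefore cannot be told apart.

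Bile acid synthesis has a classical route, begun by the 7-alpha-hydroxylase CYP7A1, and an alternative route, begun by the mitochondrial 27-hydroxylase CYP27A1 and continued by the oxysterol 7-alpha-hydroxylase CYP7B1. The 12-alpha-hydroxylase CYP8B1 directs the product towards cholic acid, AMACR turns the side chain for its shortening in peroxisomes, SLC27A5 attaches coenzyme A and BAAT joins glycine or taurine. In the feedback, bile acids bind the nuclear receptor FXR (the product of NR1H4), which induces the repressor SHP (the product of NR0B2) in liver and the hormone FGF19 mainly in the ileum. FGF19 acts on hepatocytes through the receptor FGFR4 and its coreceptor beta-klotho, the product of KLB, and SHP and FGF19 signalling both lower CYP7A1.

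Values are log2 intensities, on which a difference of 1 is a doubling of signal, and the number of arrays limits their precision. Array medians lay between 5.56 and 5.63, and pairs of arrays within a group correlated across probe sets with r from 0.991 to 0.995. No 2 arrays were copies of each other. Whether the 3 arrays of a group are separate cultures is not told by the labels, so the p-values speak for the spread among these samples alone, and that spread may be technical. A principal component holding 6.77% of the variance set both microsystem arrays numbered 3 apart (scores -17.2 and -13.9, against -4.97 to 11.8 for the others), and results that rest on them are given with and without them. Hepatocyte markers were bright: all 8 measured ones, ALB, APOA1, APOB, TTR, SERPINA1, TF, AFP and FGB, passed the filter, with an array mean of 11.3 to 11.7. Of the cholangiocyte markers 5 of 6 passed (array mean 7.54 to 7.99), of the stellate cell and fibroblast markers 4 of 6 (4.49 to 4.69), of the leukocyte markers 3 of 6 with PTPRC and CD3E among those below (5.88 to 6.28), of the enterocyte markers 2 of 5 (5.19 to 5.30) and of the endothelial markers 1 of 6 (4.05 to 4.77). Between Petri and microsystem controls the mean of the cholangiocyte markers was 7.71 and 7.96, of the endothelial markers 4.20 and 4.58, and of the leukocyte markers 6.19 and 5.95. Their part in the culture differences was not tested.

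Of the classical route, the hydroxylase genes CYP7A1 and CYP8B1 were dim in every group. CYP7A1 (probe set 8150920), the rate-limiting enzyme of that route, ranged from 2.73 to 3.26 over the 12 arrays, between the 11.5th and the 18.6th percentile of its array. Its group means were 3.04 ± 0.07 in Petri controls, 3.05 ± 0.21 in treated Petri cells, 2.93 ± 0.10 in microsystem controls and 2.89 ± 0.25 in treated microsystem cells (SD, n = 3 each, as for all group means here). The groups overlapped in all 4 comparisons.

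CYP8B1 (probe set 8086457) was the dim member with the widest spread between cultures. In Petri dishes it read 3.60, 3.91 and 3.99 in controls and 3.71, 3.75 and 3.93 in treated cells. In the microsystem it read 4.02, 4.71 and 4.80 in controls and 4.37, 3.86 and 4.68 in treated cells. All 3 microsystem controls thus lay above the 3 Petri controls, whereas the treated groups overlapped. The means were 4.51 ± 0.43 against 3.83 ± 0.21 in controls and 4.30 ± 0.41 against 3.80 ± 0.12 in treated cells. Even its highest array stood at the 39.4th percentile. Of the genes tested, to which CYP8B1 does not belong, 52.4% had no overlap between microsystem and Petri controls.

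Of the alternative route, CYP27A1 (probe set 8048432) was bright, at the 91st to 93.4th percentile of its arrays, and CYP7B1 (probe set 8151056) was dim, between 3.90 and 4.32 on all arrays. CYP27A1 read 9.54, 9.54 and 9.67 in Petri controls and 9.25, 9.38 and 9.34 in treated Petri cells. The 3 treated dishes were all below the 3 controls. In the microsystem it read 9.29, 9.63 and 9.42 in controls and 9.40, 9.25 and 9.29 in treated cells, groups that overlapped. The treatment difference in Petri dishes was -0.26 ± 0.09 (SE; 95% interval -0.46 to -0.06), a 1.20-fold lower signal, and did not pass after adjustment over all genes (limma, unadjusted p = 0.0145, adjusted p = 0.0932). With arrays weighted by their quality the difference was -0.22 and passed (adjusted p = 0.0426, in a range up to 0.258 over its alternatives). Treatment in the microsystem gave -0.14 ± 0.09 (adjusted p = 0.376). The cultures differed by -0.14 ± 0.09 in controls (adjusted p = 0.256) and by -0.01 ± 0.09 in treated cells (95% interval -0.21 to 0.19, adjusted p = 0.938). CYP7B1 had group means of 4.15 ± 0.04, 4.21 ± 0.12, 4.08 ± 0.15 and 4.09 ± 0.13 in Petri controls, treated Petri cells, microsystem controls and treated microsystem cells, and the groups overlapped in all 4 comparisons.

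**Figure D1:**
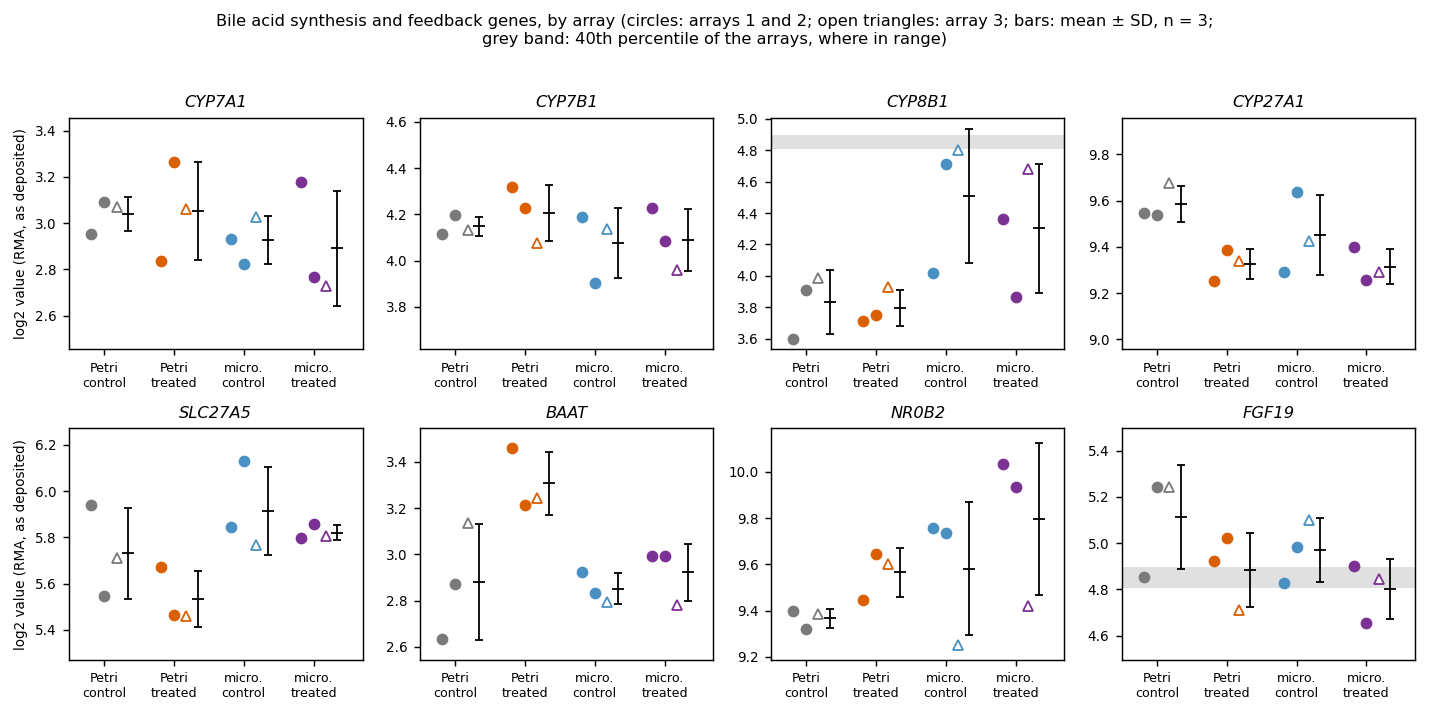
Log2 values (y axis, a range of its own in each panel) of the 8 genes with a probe set of 1 symbol on every array, by group (x axis; micro. is microsystem). Circles are arrays numbered 1 and 2, open triangles arrays numbered 3, black bars the mean ± SD of 3 arrays, and the grey band the 40th percentile of the arrays. The plot shows CYP27A1 lower in all 3 treated dishes than in the 3 control dishes, and NR0B2 at 9.25 and 9.42 on the microsystem arrays numbered 3, under the other microsystem arrays.

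In the conjugation steps, SLC27A5 (probe set 8039779), which activates bile acids with coenzyme A, lay near the middle of its arrays, and BAAT (probe set 8162870), which adds the amino acid, was dim. SLC27A5 read 5.94, 5.55 and 5.71 in Petri controls, 5.67, 5.46 and 5.46 in treated Petri cells, 5.85, 6.13 and 5.77 in microsystem controls and 5.80, 5.86 and 5.80 in treated microsystem cells. Among treated cells the 3 microsystem arrays lay above the 3 dishes, and the other groups compared overlapped. That culture difference was 0.29 ± 0.11 (95% interval 0.04 to 0.53; limma, unadjusted p = 0.0261, adjusted p = 0.0600), a 1.22-fold higher signal that did not pass. Leaving out Petri control 1 or microsystem control 2 left the difference at 0.29 and gave an adjusted p = 0.0409 or 0.0399, and leaving out Petri treated 1 gave 0.36 and 0.0398, in a range from 0.0155 to 0.166 over its alternatives. In controls the cultures differed by 0.18 ± 0.11 (adjusted p = 0.216), and by 0.35 with array weights, which passed (adjusted p = 0.0149, in a range up to 0.646 over its alternatives). The treatment differences were -0.20 ± 0.11 in Petri dishes (adjusted p = 0.293) and -0.09 ± 0.11 in the microsystem (adjusted p = 0.634).

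BAAT stood between the 9.56th and the 21.6th percentile of its arrays. It read 2.63, 2.87 and 3.14 in Petri controls, 3.46, 3.21 and 3.24 in treated Petri cells, 2.93, 2.83 and 2.79 in microsystem controls and 2.99, 2.99 and 2.78 in treated microsystem cells. The treated dishes were the highest group and overlapped none of the others. Of the genes tested, 34.5% had no overlap for treatment in Petri dishes and 52.9% for culture in treated cells. At the dim level of BAAT its values do not show that it was expressed.

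Of the feedback genes, NR0B2 (probe set 7914000), the gene of the repressor SHP, was bright and had the widest span of group means among the 4 tested genes. Petri controls read 9.40, 9.32 and 9.39, and treated Petri cells 9.45, 9.65 and 9.60, so all treated dishes lay above the controls. Microsystem controls read 9.76, 9.74 and 9.25, and treated microsystem cells 10.04, 9.93 and 9.42, where the last value of each group is the array numbered 3. The treatment differences were 0.20 ± 0.16 in Petri dishes (95% interval -0.14 to 0.53, adjusted p = 0.453) and 0.21 ± 0.16 in the microsystem (-0.12 to 0.55, adjusted p = 0.408), and neither passed. The Petri difference had an adjusted p = 0.107 in limma with the replicate number as a block within each culture. Without both microsystem arrays numbered 3 its adjusted p was 0.118. The microsystem difference was 0.05 without microsystem control 3, 0.09 without microsystem treated 1 and 0.40 without microsystem treated 3. Without both microsystem arrays numbered 3 it was 0.24 (limma, adjusted p = 0.1825). Microsystem arrays of the same number, which were not taken to pair, differed by 0.28, 0.20 and 0.17 (treated minus control, numbers 1 to 3). The culture differences of 0.21 ± 0.16 in controls and 0.23 ± 0.16 in treated cells did not pass either (adjusted p = 0.288 and 0.262). Without both microsystem arrays numbered 3 the culture differences were 0.38 and 0.42 and passed (limma, adjusted p = 0.00410 and 0.00245). Without microsystem treated 3 alone, the difference in treated cells was 0.42 with an adjusted p = 0.0271.

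FGF19 (probe set 7950023), the hormone of the feedback, stood close to the filter, above the 40th percentile on 8 of 12 arrays. It read 4.85, 5.24 and 5.24 in Petri controls, 4.92, 5.02 and 4.71 in treated Petri cells, 4.83, 4.98 and 5.10 in microsystem controls and 4.90, 4.66 and 4.85 in treated microsystem cells. The groups overlapped in all 4 comparisons. Treatment differences were -0.23 ± 0.12 in Petri dishes (adjusted p = 0.260) and -0.17 ± 0.12 in the microsystem (adjusted p = 0.406), and culture differences -0.14 ± 0.12 in controls (adjusted p = 0.373) and -0.08 ± 0.12 in treated cells (adjusted p = 0.626). With array weights the difference in Petri dishes was -0.30 (adjusted p = 0.0395, in a range up to 0.590 over its alternatives). Its next protein-coding neighbours on the chromosome in the RefSeq annotation of GRCh38.p14 are LTO1 on one side and FGF4 on the other. LTO1 was higher in the microsystem by 0.49 ± 0.07 in controls and 0.56 ± 0.07 in treated cells (adjusted p = 0.000101 and 3.69e-05), while FGF4 differed by -0.15 ± 0.09 and -0.17 ± 0.09 (adjusted p = 0.200 and 0.149).

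By comparison, 0 of the 4 tested genes passed the threshold of adjusted p under 0.05 in limma for treatment in Petri dishes, where 10.4% of the 13199 genes tested did (8.38% rose and 1.98% fell; 1367 genes, and 2180 with the replicate number as a block within each culture). For treatment in the microsystem 0 of 4 passed, against 9.06% of all genes (6.39% rose and 2.67% fell). For culture in controls the counts were 0 of 4 against 44.9%, and for culture in treated cells 0 of 4 against 41.4%. For the difference of the treatment effects (microsystem minus Petri) they were 0 of 4 against 0.0303%, which is 4 genes (0.00758% above and 0.0227% below 0). At an unadjusted p under 0.05 the counts were 1, 0, 0, 1 and 0 of 4, where 26.3%, 25.8%, 51.9%, 49.4% and 7.35% of all genes lay. The groups did not overlap for 2 of 4 genes in the treatment of Petri dishes (34.5% of all genes), for 0 of 4 in the microsystem treatment (27.6%), for 0 of 4 in the culture comparison of controls (52.4%) and for 1 of 4 in that of treated cells (52.9%). An exact permutation test of 3 arrays against 3 cannot go below p = 0.1, so none was used for single genes.

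The treatment effect was alike in sign in both cultures for the 4 genes, below 0 for CYP27A1, SLC27A5 and FGF19 and above 0 for NR0B2. The difference between the effects was 0.12 ± 0.13 for CYP27A1, 0.10 ± 0.16 for SLC27A5, 0.06 ± 0.17 for FGF19 and 0.02 ± 0.22 for NR0B2. Its 95% intervals ran from -0.16 to 0.41, from -0.24 to 0.45, from -0.32 to 0.43 and from -0.46 to 0.49, and differences within those limits are left possible by these arrays. The 4 group means of a gene spanned 0.27 for CYP27A1, 0.31 for FGF19, 0.38 for SLC27A5 and 0.43 for NR0B2, at the 29.8th, 37.4th, 48.7th and 54.9th percentile of that span among all genes tested. Ordered by level, neighbouring groups had overlapping ranges in each of the 8 genes except NR0B2 and BAAT. NR0B2 was higher in treated than in control dishes, and BAAT higher in treated dishes than in treated microsystem cells. BAAT lay under the filter on every array, and such pairs were not counted over all genes.

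**Figure D2:**
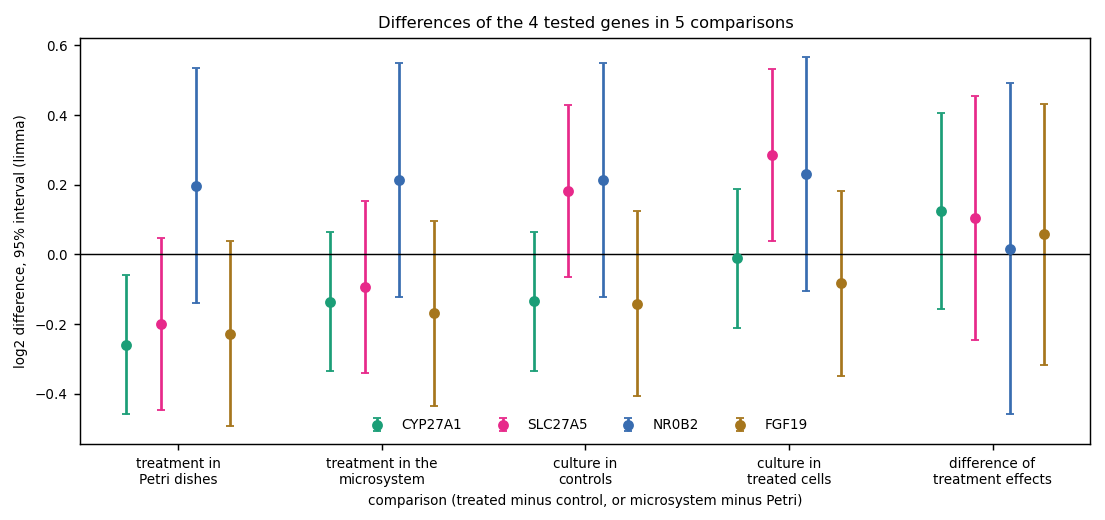
Log2 differences (y axis) of the 4 tested genes in the 5 comparisons (x axis), with 95% intervals from the moderated limma fit, not adjusted for multiple tests. The intervals of CYP27A1 for treatment in Petri dishes (-0.46 to -0.06) and of SLC27A5 for culture in treated cells (0.04 to 0.53) leave out 0, and the others span it.

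Of the receiving side of FGF19 signalling, the coreceptor gene KLB rose with the microsystem, while the ligand and the receptor did not pass. KLB (probe set 8094679) read 7.62, 7.10 and 7.12 in Petri controls and 7.11, 6.96 and 6.90 in treated Petri cells. In the microsystem it read 9.18, 9.20 and 7.84 in controls and 9.17, 9.22 and 7.55 in treated cells, the last value being the array numbered 3. All microsystem arrays lay above the dishes of the same treatment, with the arrays numbered 3 closest to them. KLB rose with the microsystem by 1.46 ± 0.41 in controls (2.75-fold, adjusted p = 0.0101) and by 1.66 ± 0.41 in treated cells (3.15-fold, adjusted p = 0.00516). Without both arrays numbered 3 these differences were 1.91 and 2.21, and without microsystem control 2 the first was 1.23 and did not pass (adjusted p = 0.0505). FGFR4, the receptor, which was picked for description after its values were seen, differed by -0.09 ± 0.09 and -0.07 ± 0.09 between cultures (adjusted p = 0.460 and 0.566) and stayed between 10.5 and 10.8 on all arrays. Treatment gave KLB differences of -0.29 ± 0.41 in Petri dishes and -0.10 ± 0.41 in the microsystem (adjusted p = 0.686 and 0.901).

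**Figure D3:**
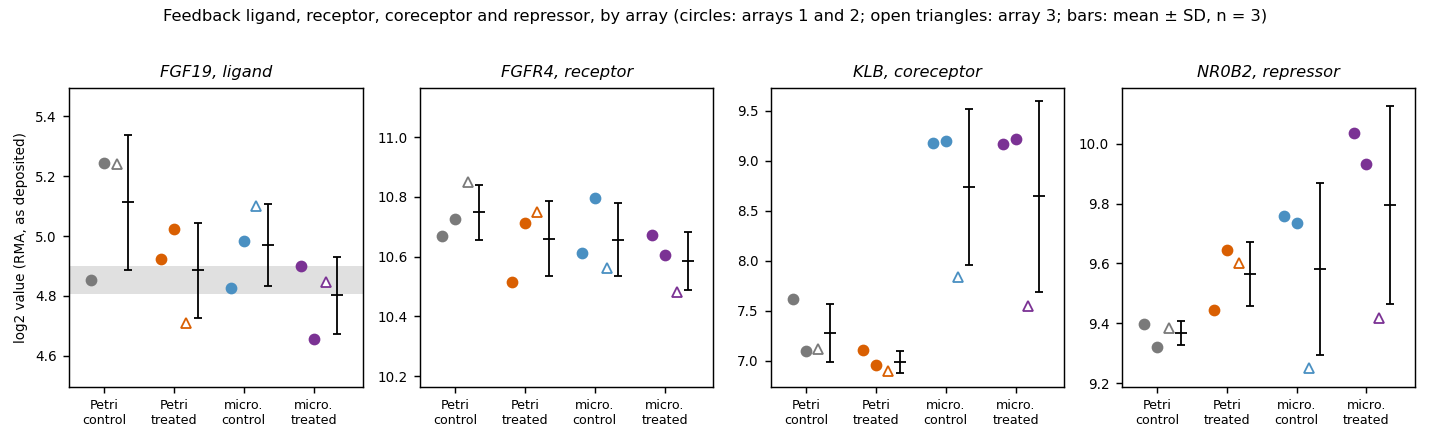
Log2 values (y axis, a range of its own in each panel) of FGF19, FGFR4, KLB and NR0B2 on every array, by group (x axis). Circles are arrays numbered 1 and 2, open triangles arrays numbered 3, black bars the mean ± SD of 3 arrays, and the grey band the 40th percentile. KLB stands at 9.17 to 9.22 on the microsystem arrays numbered 1 and 2, at 7.55 and 7.84 on those numbered 3 and at 6.90 to 7.62 in dishes, and NR0B2 also reads lower on the microsystem arrays numbered 3.

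Among other enzymes and carriers of bile acid synthesis and its cholesterol supply, 19 genes were listed and 14 tested. Of these 5 rose and 2 fell with the microsystem in controls, and 5 rose and 1 fell in treated cells (median difference 0.13 and 0.04, against 0.0117 and -0.0014 over all genes; 26.5% of all genes rose and 18.3% fell in controls, and 22.6% rose and 18.9% fell in treated cells). LIPA, the lysosomal acid lipase that frees cholesterol from its esters, rose by 1.53 ± 0.12 in controls and 1.04 ± 0.12 in treated cells (adjusted p = 5.92e-07 and 1.32e-05). The peroxisomal enzyme EHHADH rose by 1.25 ± 0.17 and 0.90 ± 0.17, and HSD17B4, the bifunctional enzyme of peroxisomal side-chain shortening, by 0.89 ± 0.09 and 0.64 ± 0.09. SLC27A2, an acyl-CoA synthetase related to SLC27A5, rose by 0.61 ± 0.21 and 0.77 ± 0.21, a call that in controls was lost without any of 3 single arrays (Petri control 1, microsystem control 2 or microsystem control 3, adjusted p up to 0.134) and without both arrays numbered 3 (0.48, adjusted p = 0.0513). In treated cells its rise was 0.54 without both arrays numbered 3 and still passed in limma (adjusted p = 0.0343, and up to 0.0491 over its alternatives). The count that fell in controls was 0 to 2 when single arrays were left out.

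With treatment in Petri dishes 1 of the 14 rose and 1 fell, and in the microsystem 0 rose and 3 fell (median difference -0.07 and -0.10, against 0.0127 and -0.0069 over all genes). ACAA1, the thiolase of peroxisomal beta-oxidation, read 9.45, 9.37 and 9.46 in control and 8.74, 9.05 and 8.95 in treated dishes, and 9.35, 9.52 and 9.31 in control and 8.99, 8.83 and 8.79 in treated microsystem cells. It fell by 0.51 ± 0.10 and 0.52 ± 0.10 (adjusted p = 0.00461 and 0.00602), with no overlap of groups, and was called under each of 23 alternatives. LIPA rose by 0.46 ± 0.12 in treated dishes, which did not pass when Petri control 1 or 2, or Petri treated 2 or 3, was omitted (adjusted p up to 0.0980 over its alternatives, which gave 0.40 to 0.51). In the microsystem STAR, a carrier of cholesterol into mitochondria, fell by 0.37 ± 0.10 and HSD17B4 by 0.31 ± 0.09 (adjusted p = 0.0314 and 0.0458). STAR did not pass without microsystem control 2 or 3 or microsystem treated 1 or 2 (-0.47 to -0.32 over its alternatives, adjusted p up to 0.130). HSD17B4 did not pass without any one of 10 arrays, all but Petri control 1 and microsystem control 1, nor without both arrays numbered 3 (-0.38 to -0.26 over its alternatives, adjusted p up to 0.165).

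Of 30 receptors and factors that act in the feedback, 20 were tested. With the microsystem 3 rose and 6 fell in controls, and 4 rose and 5 fell in treated cells (median difference -0.05 and -0.09), where 26.5% of all genes rose and 18.3% fell in controls, and 22.6% and 18.9% in treated cells. Apart from KLB, the largest were falls of FOXA2, a hepatocyte forkhead factor, by 0.89 ± 0.12 in controls and 0.93 ± 0.12 in treated cells, of FOXO1, which insulin signalling restrains, by 0.75 ± 0.13 and 0.57 ± 0.13, and of the deacetylase gene SIRT1 by 0.85 ± 0.09 in controls. PPARGC1A, a coactivator of hepatic nuclear receptors, fell by 0.64 ± 0.12 in controls and 0.77 ± 0.12 in treated cells. SIRT1 also fell in treated cells, by 0.47 ± 0.09. NR5A2, whose product LRH-1 drives CYP7A1 and which was named after its values were seen, was dim (21.1st to 34.4th percentile). Treatment moved 0 of the 20 in Petri dishes by limma, where ONECUT1 came nearest at -0.28 ± 0.09 (adjusted p = 0.0792). Of all genes 10.4% were called there. At an unadjusted p under 0.05 there were 4 of the 20, against 26.3% of all genes. With the replicate number as a block within each culture 2 fell, ONECUT1 among them (adjusted p = 0.0387). In the microsystem 2 rose and 2 fell, where 6.39% of all genes rose and 2.67% fell. NCOA1, a coactivator of nuclear receptors, rose by 0.69 ± 0.11 (adjusted p = 0.00218), with values of 6.87, 6.63 and 6.67 in controls and 7.20, 7.63 and 7.40 in treated cells. SIRT1 rose by 0.37 ± 0.09, and the arginine methyltransferase genes PRMT1 and CARM1 fell by 0.41 ± 0.10 and 0.27 ± 0.07. SIRT1 did not pass without microsystem control 1 or 2 or microsystem treated 2 or 3 (0.31 to 0.43 over its alternatives, adjusted p up to 0.102). PRMT1 did not pass without microsystem control 2 or 3 or microsystem treated 1 or 2 (-0.50 to -0.34, adjusted p up to 0.0871), and CARM1 not without these or microsystem treated 3 (-0.29 to -0.23, adjusted p up to 0.133). Without both arrays numbered 3, SIRT1 and CARM1 had an adjusted p = 0.0657 and 0.0896.

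Of the genes tested in the 5 lists, the transporter gene SLC51A had the largest culture difference. Of 18 transport genes 10 were tested, and 4 rose and 2 fell with the microsystem in controls, with the same counts in treated cells (median difference 0.03 and 0.10), where 44.9% and 41.4% of all genes were called. SLC51A, a subunit of the basolateral bile acid exporter, read 8.44, 8.59 and 8.85 in Petri controls and 6.41, 6.43 and 6.77 in microsystem controls, and 8.002, 8.26 and 8.57 in treated dishes and 6.29, 5.94 and 6.51 in treated microsystem cells. It fell 4.25-fold in controls (-2.09 ± 0.17, adjusted p = 1.10e-06) and 4.09-fold in treated cells (-2.03 ± 0.17, adjusted p = 1.38e-06). ABCC2, a canalicular exporter of conjugates, rose by 0.95 ± 0.11 and 1.12 ± 0.11, the basolateral exporter gene ABCC3 by 0.87 ± 0.09 and 1.21 ± 0.09, and the sterol exporter gene ABCG8 by 0.89 ± 0.10 and 1.09 ± 0.10. The bile salt export pump gene ABCB11 and the uptake transporter gene SLC10A1, named after their values were seen, were dim on every array (up to the 15.6th and the 33.6th percentile). With treatment 1 of the 10 fell in Petri dishes, ABCG8 by 0.40 ± 0.10 (adjusted p = 0.0197), which did not pass when Petri control 1, Petri control 2 or Petri treated 3 was omitted (-0.47 to -0.34 over its alternatives, adjusted p up to 0.0880). With the block 2 fell. Without the block 1.98% of all genes fell in Petri dishes. In the microsystem 0 of 10 passed in limma (9.06% of all genes), also 0 at an unadjusted p under 0.05 (25.8%), and ABCC4 came nearest at -0.23 ± 0.11 (adjusted p = 0.227).

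**Figure D4:**
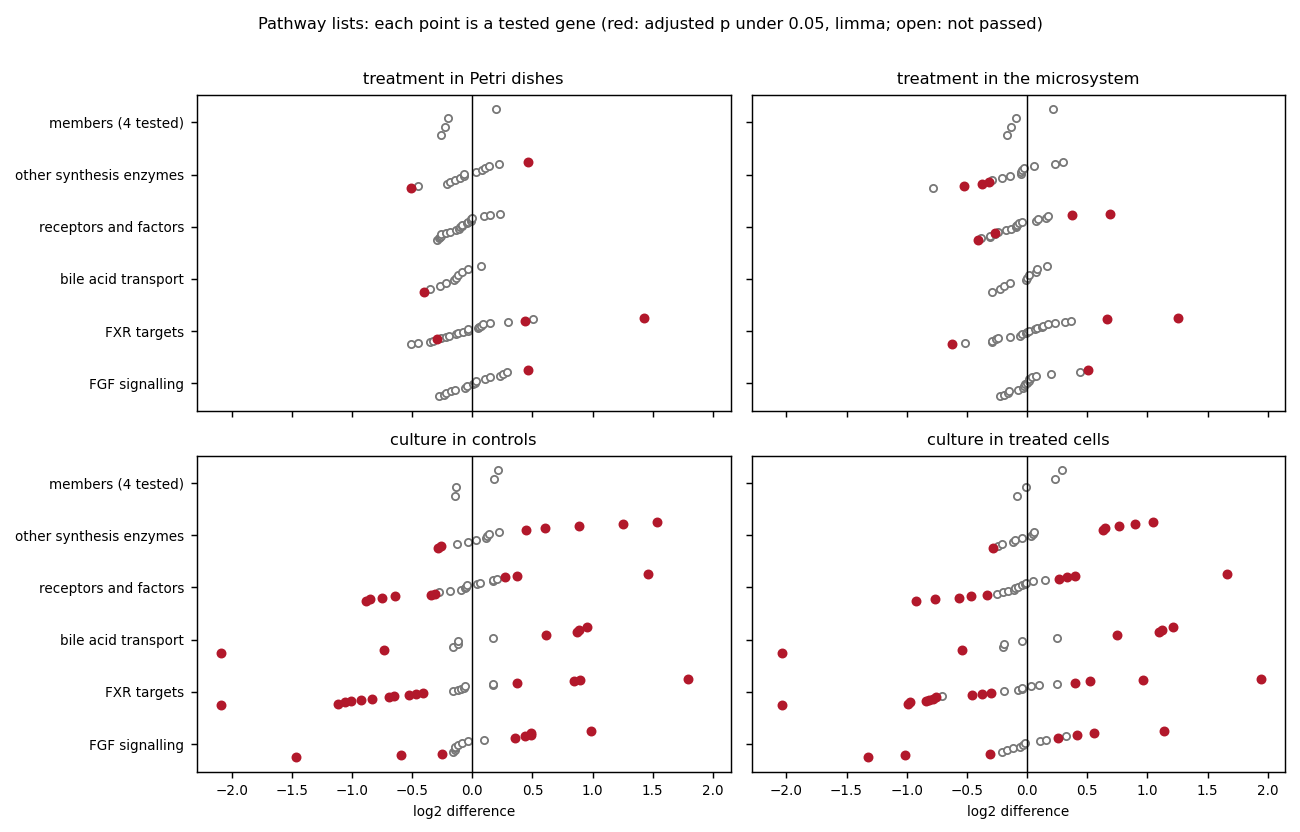
Log2 differences (x axis) of every tested gene of the 5 pathway lists and of the 4 tested members (rows), for both treatment and both culture comparisons (panels). Red points passed an adjusted p under 0.05 in limma and open points did not. The plot shows SLC51A at -2.09 and -2.03 as the lowest point of the culture panels and no red point among the members.

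Genes known as targets of FXR were taken as a list of 29, of which 22 were tested. The list was not split by the direction in which FXR acts on a gene, and FXR activity itself was not tested. With the microsystem 4 rose and 11 fell in controls, and 4 rose and 10 fell in treated cells (median difference -0.29 and -0.25). Of all genes 26.5% rose and 18.3% fell in controls, and 22.6% and 18.9% in treated cells. SLC51A is counted both here and among the transport genes. SLC51B, also in both lists, did not pass in limma (0.17 ± 0.17 in controls and 0.25 ± 0.17 in treated cells, adjusted p = 0.4305 and 0.264). The falls included SLC51A, the fibrinogen gene FGA (-1.12 ± 0.28 in controls, and -0.74 without microsystem control 1), the lipoprotein receptor gene VLDLR (-1.06 ± 0.13 in controls), the apolipoprotein gene APOC3 (-0.99 ± 0.17 in treated cells) and the fetuin gene FETUB. FGA and VLDLR also fell in treated cells (-0.78 ± 0.28 and -0.84 ± 0.13), and APOC3 in controls (-0.69 ± 0.17). In treated cells FETUB read 5.54 to 5.595 in dishes and 4.52 to 4.69 in the microsystem, where all 3 arrays lay under the 40th percentile, so its fall there is given without a size. SQSTM1 rose by 0.90 ± 0.11 in controls and 0.96 ± 0.11 in treated cells, and SULT2A1 by 0.85 ± 0.19 and 0.52 ± 0.19. MAFG rose by 0.37 ± 0.09 and 0.40 ± 0.09. CYP3A4 is counted among those that rose, but it passed the filter only through microsystem arrays. It read 2.67 to 3.62 in dishes, under the 40th percentile, and 4.40 to 5.59 in the microsystem, so its culture difference is given without a size, and near-identical relatives make its value uncertain. With treatment 2 of the 22 rose and 1 fell in Petri dishes (4 and 2 with the block), and 2 rose and 1 fell in the microsystem. PLTP, the phospholipid transfer protein, rose in both, from 8.46 ± 0.04 to 9.89 ± 0.17 in Petri dishes and from 7.81 ± 0.07 to 9.07 ± 0.19 in the microsystem (1.42 ± 0.11 and 1.26 ± 0.11, adjusted p = 6.90e-06 and 7.69e-05). The proteoglycan gene SDC1 rose by 0.44 ± 0.08 in Petri dishes (adjusted p = 0.00323) and FETUB fell by 0.295 ± 0.084 (adjusted p = 0.0407). FETUB did not pass without any one of the 6 Petri arrays or microsystem treated 1. Nor did it pass with quantile normalization, array medians set equal, the filter dropped or an intensity trend (-0.31 to -0.25 over its alternatives, adjusted p up to 0.132). In the microsystem CYP3A4 is counted as rising and APOC3 fell by 0.63 ± 0.17, with groups that overlapped for APOC3 (adjusted p = 0.0368). The CYP3A4 controls there stood at the 38.9th, 40.05th and 34.03rd percentile, so its rise is given without a size. CYP3A4 did not pass with the filter dropped or with only the arrays compared. It also did not pass without microsystem control 2 or 3, microsystem treated 1 or 2, Petri control 2 or 3, or Petri treated 2 (adjusted p up to 0.163). APOC3 did not pass without microsystem control 2 or 3, microsystem treated 2 or 3, or Petri treated 2 (-0.85 to -0.46, adjusted p up to 0.215), nor without both arrays numbered 3 (-0.47). NR0B2 and FGF19 are themselves known FXR targets and were kept out of this list.

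Of 25 FGF ligands and signalling genes 16 were tested, and 5 rose and 3 fell with the microsystem in controls, and 4 rose and 3 fell in treated cells (median difference -0.10 and -0.02), where 44.9% and 41.4% of all genes were called. SPRY1, an inhibitor of receptor kinase signalling, fell by 1.46 ± 0.11 and 1.32 ± 0.11, the phosphatase gene DUSP5 by 0.59 ± 0.14 and 1.01 ± 0.14, and the receptor gene FGFR1 rose by 0.99 ± 0.17 and 1.14 ± 0.17. With treatment DUSP5 alone rose in Petri dishes, by 0.47 ± 0.14 (adjusted p = 0.0450; 2 genes with the block), and the inhibitor gene SPRY4 alone in the microsystem, by 0.51 ± 0.14 (adjusted p = 0.0350). Of all genes 8.38% rose with treatment in Petri dishes and 6.39% in the microsystem. DUSP5 did not pass without Petri control 1 or 2, Petri treated 2 or 3, or microsystem treated 1 (0.38 to 0.60 over its alternatives, adjusted p up to 0.174). SPRY4 did not pass without microsystem control 2 or 3, any microsystem treated array or Petri treated 2 (0.42 to 0.69, adjusted p up to 0.136), nor without both arrays numbered 3 (0.45, adjusted p = 0.135). For the difference of treatment effects 0 genes of any of the 5 lists passed in limma, with NCOA1 (0.46 ± 0.15) the nearest at an adjusted p = 0.447. At an unadjusted p under 0.05 there were 1 of 14 enzymes, 2 of 20 receptors or factors and 1 of 10 transport genes. There were also 1 of 22 FXR targets and 3 of 16 FGF genes, where 7.35% of all genes lay. Without both microsystem arrays numbered 3, the FXR targets counted 5 that rose and 10 that fell with the microsystem in controls, and 5 and 11 in treated cells. The counts for the enzymes were 4 and 1, then 5 and 1, for the receptors and factors 4 and 5 in each, for transport 4 and 2, then 5 and 2, and for the FGF genes 5 and 3, then 3 and 4. For treatment in the microsystem they were 2 and 0 among FXR targets, 0 and 2 among enzymes, 1 and 1 among receptors and factors, 0 and 0 in transport, and 1 and 0 among the FGF genes.

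Among all genes tested, those most like a listed gene were found by the root mean square difference of log2 values over the 12 arrays, each gene centred on its own mean. Nearest to NR0B2 were AGFG2 (0.07), SEPTIN8 (0.09) and SLC2A13 (0.09). Nearest to SLC27A5 were the kinase gene HIPK2 (0.07), the transcription factor gene CREB3L2 (0.08) and C20orf96 (0.09), and nearest to FGF19 were NFAM1 (0.08), LINC00839 (0.08) and MIR219A1 (0.09). AGFG2 had group means of 7.18, 7.40, 7.44 and 7.52 in Petri controls, treated Petri cells, microsystem controls and treated microsystem cells. Its order is that of NR0B2, a likeness for which it was picked. No difference of NR0B2 passed in the main fit.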

How the data were processed

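RNA of 12 samples was measured on Affymetrix arrays. The deposited log2 values per probe set come, per the submitters' processing notes, from RMA as run in Expression Console, and were used as they are. The sources used here give no version and no build, and no positions are printed. Of 32321 probe sets, 19158 had 1 symbol, 1388 several and 11775 none here. Groups come from the sample titles.

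A model with 4 group means was fitted over the 12 arrays by limma 3.58.1 under R 4.3.3, and variances were moderated by eBayes (residual degrees of freedom 8, prior 5.35). P-values are two-sided and adjusted by the Benjamini-Hochberg method over 13199 genes, and SE values are those of this fit. Per list and comparison, up to 4 genes past the threshold with the largest differences are named, or the one with the smallest adjusted p, and not all of these are printed. The members, lists and tests were chosen with earlier results of these data known. The code was tested on simulated data. Figures were drawn with matplotlib 3.10.9 in Python 3.11.15, and files were read with the package data.table, version 1.17.8.

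Replicate numbers were checked for pairing through correlated deviations from group means. Treated and control dishes of the same number had r of 0.48, 0.19 and 0.31, so these numbers were taken to pair them. The values were 0.11, 0.07 and 0.60 for treated and control microsystem samples, for culture in controls 0.18, -0.03 and 0.13, and in treated cells 0.14, -0.14 and 0.13. The main fit, its SE values and its intervals hold no replicate block, also for Petri dishes. Fits with a block are given as alternatives. Alternatives were replicate blocks, only the arrays compared, other scaling, filters of none and the 60th percentile, averaging the probe sets of a gene, an intensity trend, array weights, and leaving out arrays.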

Additional observations from a re-analysis of the deposited data

How the results depend on the processing

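Of the 4 tested genes, 0 passed for treatment in the microsystem and for the difference of treatment effects under any alternative run. With array weights 2 passed for treatment in Petri dishes, 1 for culture in controls and 1 for culture in treated cells, against 0 in each without weights. Without both microsystem arrays numbered 3 the count was 1 for each culture comparison, and for culture in treated cells it was 1 with only the arrays compared and 0 to 1 when single arrays were left out. The replicate block, over all arrays or within each culture, changed no call of the 4 tested genes. For treatment in Petri dishes, limma with the block within each culture gave CYP27A1 an adjusted p = 0.0857. It gave 0.126 for SLC27A5, 0.198 for FGF19 and 0.107 for NR0B2 there. For treatment in the microsystem that block gave NR0B2 an adjusted p = 0.0858. Among the pathway genes named, ONECUT1 in Petri dishes passed with either block (adjusted p = 0.0359 over all arrays), and HSD17B4 for treatment in the microsystem did not pass with the block over all arrays (0.0502) or with only the arrays compared. STAR, PRMT1, SIRT1, CARM1, CYP3A4, APOC3 and SPRY4 for treatment in the microsystem did not pass with only the arrays compared either. After quantile normalization FETUB and DUSP5 in Petri dishes and STAR in the microsystem did not pass. With array medians set equal, FETUB in Petri dishes and HSD17B4 and CARM1 in the microsystem did not. With the filter dropped, FETUB and DUSP5 in Petri dishes and HSD17B4 and CYP3A4 in the microsystem did not. For treatment in the microsystem, where the numbers were not taken to pair, the block within each culture gave 6 receptors and factors that fell in place of 2, 3 FXR targets that fell in place of 1, 1 enzyme that rose in place of 0, 1 transport gene that fell in place of 0 and 2 FGF genes that rose in place of 1. The block over all arrays gave 5 such receptors and factors and 2 such FXR targets.

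Over all genes, 1367 were called for treatment in Petri dishes, against 2180 with the replicate block within each culture, 3602 with array weights and 701 to 1520 without single arrays (leaving out Petri control 2 or 3 gave 771 and 844, and leaving out Petri treated 2 or 3 gave 701 and 730). For treatment in the microsystem 1196 were called, against 2109 with that block, 446 with only the arrays compared, 677 without both arrays numbered 3 and 460 to 1440 without single arrays (605 without microsystem control 2 and 460 without microsystem treated 2). For the difference of treatment effects 4 were called, against 18 with the replicate block, 24 with the block within each culture, 7 after quantile normalization, 10 with an intensity trend, 54 with array weights, 11 without both arrays numbered 3 and 1 to 13 without single arrays. For these counts the cause was not tested. The fit of only the arrays compared was not run for the difference of treatment effects, the block within each culture not for the culture comparisons, and the filter at the 60th percentile leaves out SLC27A5 and FGF19.

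Signs turned only for differences near 0. CYP27A1 for culture in treated cells (-0.01) was 0.0075 after quantile normalization, 0.0011 without both arrays numbered 3 and -0.0533 to 0.0187 without single arrays. SLC27A5 for treatment in the microsystem ran from -0.1685 to 0.0138 without single arrays (highest without microsystem control 2), and its difference of treatment effects was -0.0201 with array weights. The difference of treatment effects of NR0B2 was -0.0218 with array weights and ran from -0.1488 to 0.2051 without single arrays, and that of FGF19 from -0.0291 to 0.188. The signal of CYP7A1, CYP7B1, CYP8B1 and BAAT, under the filter on every array, limits what can be said of them; with the filter dropped they enter the fit, but a difference between groups not shown above background is not printed.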

Other observations

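The probe set 8111430 carries the symbols of both AMACR and C1QTNF3-AMACR and is therefore named for neither. Its log2 values averaged 6.96 ± 0.02 in Petri controls, 6.84 ± 0.26 in treated Petri cells, 7.97 ± 0.33 in microsystem controls and 7.52 ± 0.09 in treated microsystem cells (SD, n = 3). All 6 microsystem values, from 7.41 to 8.34, lay above all 6 Petri values, from 6.59 to 7.11, and treated lay below control in the microsystem without overlap. A split of 6 against 6 was not counted over all genes. Of the genes tested, 52.4% had no overlap between cultures in controls and 52.9% in treated cells. For treatment in the microsystem the share was 27.6%. No test was made on it.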
